A study of Mus musculus with 2 samples.

Results

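Among the epithelial cells of the mouse tongue, a small set was chosen for their transcripts of 7 genes, some of them linked to Wnt signalling. The genes were Lef1, Lgr6, Notum, Apcdd1, Runx2, Fbn2 and Robo2. The score of a cell was its number of UMIs (unique molecular identifiers, one per captured transcript) over these genes per 10000 UMIs of the cell. The cells with the highest score over both libraries pooled, 3.07% of 4078 kept cells, are called members here, and the remaining 3953 are the other cells. Kept cells had at least 500 genes, at least 5000 UMIs and under 10% mitochondrial UMIs. The members numbered 69 at Zeitgeber time 0 (ZT0, lights on in the usual convention) and 56 at ZT12 (lights off).

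All cells came from tongue epithelium of male mice of the strain written in the labels as B57BL/6, aged 8 to 12 weeks, with no transgene or treatment named. The epithelium was minced and digested with TrypLE, a recombinant protease, and 7-AAD, a dye of dead cells, served to sort the live ones before 10x Genomics 3′ libraries were made. There was 1 library per time, and the sources used here do not say how many mice each one pools. Every value below therefore describes 2 libraries, and intervals, all at 95%, cover counting error only.

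In canonical Wnt signalling, a secreted Wnt ligand binds a Frizzled receptor and an LRP co-receptor, and beta-catenin then escapes degradation, enters the nucleus and acts with factors of the TCF/LEF family on target genes. Several of those targets, such as Axin2, Notum, Apcdd1, Znrf3 and Bambi, act back on the pathway or on its neighbours. In hair follicles and in the tongue, Wnt signals are known for their part in forming and renewing appendages, including the papillae that cover the dorsal tongue.

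Members had a median of 28737 UMIs per cell at ZT0 and 24529.5 at ZT12, against 29234.5 and 23388 in the other cells. Their depth was thus close to that of the rest. The summed counts were 2157000 UMIs over the ZT0 members and 1414192 over the ZT12 members, so the ZT12 values are the less precise. The libraries shared 2 of their barcodes, and no member was among them. No doublet caller was run, since the rule fixes which cells are members. Cells with more than 2 times their library's median UMIs, where doublets would gather, numbered 0 and 1 among the members and 87 and 178 among the other cells.

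The score chose the members, so the levels of its genes are a description. Lef1, a nuclear partner of beta-catenin (chromosome 3, 131110471 to 131224356 on mm10), was at 433 UMIs per 1000000 UMIs (CPM) in the ZT0 members and 460 CPM in the ZT12 members, against 35.4 and 34.6 CPM in the other cells. Apcdd1, a membrane inhibitor of Wnt signalling, was at 804 and 659 CPM in members and at 69.3 and 49.9 CPM elsewhere. Notum, a secreted enzyme that removes the lipid Wnt ligands need (chromosome 11, 120653788 to 120661175), was at 93.6 and 104 CPM against 5.56 and 4.54 CPM. For Lef1 and Notum the interval of the ratio between both libraries' members included 1, and Apcdd1 was lower at ZT12.

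Lgr6, an R-spondin receptor that marks stem cells in several epithelia (chromosome 1, 134983301 to 135105276), was at 58.4 and 55.2 CPM in members and at 3.03 and 2.26 CPM in the other cells. Runx2, a transcription factor best known in bone, was at 289 and 294 CPM against 15.8 and 12.9 CPM. Fbn2, a fibrillin of extracellular microfibrils, was at 54.2 and 71.4 CPM against 2.1 and 3.57 CPM, and Robo2, a receptor for Slit guidance proteins, was at 138 and 116 CPM against 21.7 and 16.9 CPM. Robo2 had the smallest contrast of the 7 genes. Apcdd1 supplied 40.9% of the score UMIs of the members and Lef1 24.3%.

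The score had no gap at its limit. The lowest member had 13.857 score UMIs per 10000 and the highest of the other cells 13.8427, while the fifth cell inside the limit stood at 14.1 and the fifth outside at 13.8. The members' median was 17.6 and their highest value 34.7, against a median of 0.40 in the other cells. Of the other cells, 113 scored over 10 and 1632 held no UMI of any score gene. A member held UMIs of a median of 6 of the 7 genes and another cell of 1, and 118 members but also 279 other cells held at least 4. The members are therefore the top of a graded range, not a separate group by this score.

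The genes of the score were also high in the same cells when each was left out of the choice. For each gene, the same number of cells with the highest score over the other 6 genes was taken, and the level of the gene left out was read in them. Lef1 was 9.26 times higher in such cells than in the rest at ZT0 (interval 8.50 to 10.1) and 9.01 times at ZT12 (8.16 to 9.94). Lgr6 was 17.4 times higher (13.6 to 22.3) and 23.8 times (17.9 to 31.6), and Notum 16.7 times (13.8 to 20.1) and 17.3 times (13.9 to 21.4). Across all 7 genes the ratio ran from 5.55 for Robo2 at ZT12 to 23.8 for Lgr6 at ZT12, and no interval reached 1. The cells chosen by 6 genes shared 91 to 123 cells with the members, fewest without Apcdd1. Because the 7 genes were chosen together with earlier results of these data known, these ratios describe the choice and are not a test.

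With every cell thinned to 5000 UMIs, Lef1 was detected in 85.5% of ZT0 members and 87.5% of ZT12 members (98.6% and 98.2% before thinning), and Runx2 in 68.1% and 67.9%. In 37 ZT0 and 88 ZT12 cells chosen by their Krt36 and Krt84 UMIs, filiform papilla keratins, with a median of 22594 UMIs, the thinned shares were 0% and 2.27% for Lef1 and 0% and 4.55% for Runx2. Lgr6 and Fbn2 were sparser, at 26.1% and 26.8%, and at 15.9% and 19.6%, of thinned members, and at 2.70% and 2.27%, and 0% and 0%, of the thinned Krt36 and Krt84 cells. Most members thus lacked a thinned UMI of the sparser markers.

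**Figure D1:**
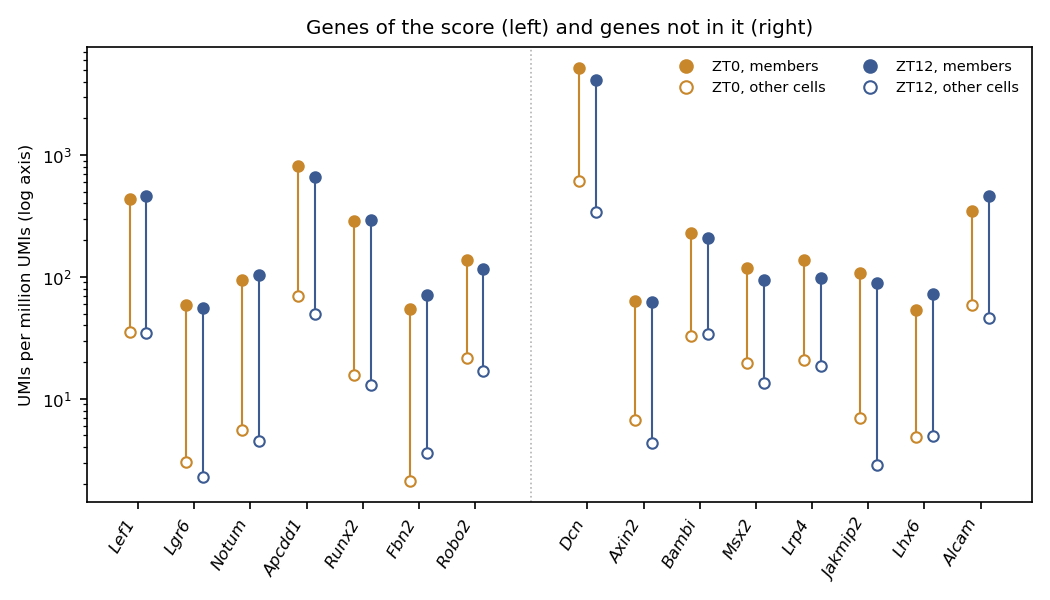
Levels of the 7 score genes (left of the dotted line) and of 8 genes outside the score (right) in CPM on a log axis, for members (filled points) and other kept cells (open points) of the ZT0 and ZT12 libraries; each point is 1 sum over cells, with no replicate error. In each pair the members lie above the other cells, for example Dcn at 5196 against 609 CPM at ZT0.

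To describe the members beyond the score, each gene was compared with the other cells inside each library. A gene was called higher where it was at least 2 times higher in members in both libraries (on the log2 scale with 1 CPM added), both intervals lay above 1, and its mean over the 4 sums was at least 20 CPM. By this rule 106 of 5807 genes outside the score were higher (1.83%) and 152 were lower (2.62%). These genes come from the cells that the score selected, so the counts describe the cells and are not a test.

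Dcn was found in every member. It encodes decorin, a small proteoglycan best known from connective tissue (chromosome 10, 97479609 to 97518143), and stood at 5196 CPM in ZT0 members and 4152 CPM in ZT12 members, against 609 and 341 CPM in the other cells. The ratios were 8.53 (8.34 to 8.71) and 12.2 (11.8 to 12.5). Per 10000 UMIs the ZT0 members ran from 10.5 through a median of 54.8 to 133, and the ZT12 members from 2.22 through 40.0 to 123. In the other cells the median was 0 and the highest values were 135 and 98.6, so the ranges overlapped.

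Decorin is a usual marker of fibroblasts, and the remaining 8 fibroblast markers were read in the same cells (Col1a1, Col1a2, Col3a1, Lum, Pdgfra, Pdgfrb, Thy1 and Twist2). They summed to 1 UMI over the 69 ZT0 members and 0 UMIs over the 56 ZT12 members, against 11208 and 5872 UMIs of Dcn. The highest member held 0.309 UMIs of these 8 genes per 10000. In the other cells they summed to 177 and 85 UMIs.

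Among the 20 genes furthest above the other cells, 2 were Wnt feedback genes. Axin2, a scaffold of the beta-catenin destruction complex that is itself a general Wnt target (chromosome 11, 108920349 to 108950783), was at 64.0 and 62.2 CPM in members against 6.70 and 4.38 CPM. Its ratios were 9.55 (7.76 to 11.7) and 14.2 (11.1 to 18.1). Bambi, a decoy receptor for BMP and TGF-beta signals, was at 230 and 210 CPM against 32.5 and 34.1 CPM, with ratios of 7.09 (6.40 to 7.85) and 6.15 (5.43 to 6.94). Axin2 UMIs were found in 45 of 69 and 36 of 56 members and in 8.86% and 6.37% of the other cells, so many members had none at this depth.

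Transcription factors in this group were Lhx6, a LIM homeobox factor, at 53.3 and 72.8 CPM in members against 4.86 and 4.94 CPM, and Msx2, a homeobox factor downstream of BMP signals, at 119 and 94.0 CPM against 19.6 and 13.4 CPM. Lrp4, a co-receptor that can bind Wnt inhibitors, was at 136 and 98.3 CPM against 20.6 and 18.5 CPM. Prickle2, of the planar polarity branch of Wnt signalling, was at 62.1 and 71.4 CPM against 9.69 and 7.54 CPM. For all 4 genes the members of each library were above both sums of other cells. The contrast was smaller inside clusters 5 and 13, the 2 clusters of cells that held most members. Inside cluster 5, Lhx6 was at 61.8 and 61.8 CPM in members against 52.2 and 58.2 CPM in the cluster's other cells. Msx2 was there at 108 and 95.2 CPM against 104 and 72.7 CPM. Inside cluster 13, Lhx6 was at 49.4 and 97.3 CPM against 49.8 and 55.9 CPM, and Msx2 at 126 and 99.1 CPM against 44.8 and 67.6 CPM.

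Several of the 20 genes encode adhesion or guidance proteins. Alcam, a cell adhesion molecule, was at 347 and 457 CPM in members against 58.8 and 46.2 CPM. Robo1, the second Slit receptor of the group, was at 96.4 and 97.6 CPM against 19.0 and 17.0 CPM, and the protocadherin gene Pcdh19 at 219 and 211 CPM against 33.8 and 23.2 CPM. Sema6a, a membrane semaphorin, stood at 90.4 and 86.3 CPM against 15.01 and 17.2 CPM. Lmo7, which links cell junctions to the actin skeleton, was at 691 and 739 CPM against 131 and 138 CPM. Nrg1, a ligand of ErbB receptors, was at 122 and 98.3 CPM against 19.6 and 13.3 CPM, though only 31 and 22 members held its UMIs. In cluster 5, 1 of the 2 clusters that held most members, Nrg1 was at 154 and 99.1 CPM in members and at 188 and 126 CPM in the cluster's other cells, so the direction turned there.

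The proton channel genes Otop2 and Otop3 were also in the group, at 51.0 and 82.0 CPM and at 129 and 150 CPM in members. Their levels in the other cells were 7.38 and 9.95 CPM and 27.1 and 30.6 CPM. Within cluster 5, too, the direction turned, with Otop2 at 64.1 and 73.3 CPM in members and 81.7 and 114 CPM in the cluster's other cells, and Otop3 at 148 and 151 CPM against 180.4 and 219 CPM. Jakmip2 had the largest contrast, at 108 and 88.4 CPM against 7.00 and 2.89 CPM. Within cluster 13, which also held many members, it hardly differed, at 151 and 110 CPM in members and 141 and 114 CPM in the cluster's other cells. Within cluster 5 it was at 58.4 and 73.3 CPM against 33.1 and 18.6 CPM. The last of the 20, Golga7b, Adamtsl1, Nhs and Rai14, were between 5.53 and 14.8 times higher in the members of either library. Golga7b turned lower in members within cluster 5, at 44.6 and 39.9 CPM against 53.9 and 42.4 CPM, though not within cluster 13. Adamtsl1 turned lower within cluster 13, at 88.4 and 101 CPM against 101 and 172 CPM, though not within cluster 5.

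Of the 12 genes furthest below the other cells, 6 were keratin genes. Krt4, a keratin of differentiating oral epithelium (chromosome 15, 101918535 to 101924735), was at 265 and 414 CPM in members against 9498 and 12598 CPM elsewhere, 35.8 times lower (33.0 to 38.9) and 30.5 times lower (28.1 to 33.1). Krt6b was at 2.32 and 3.54 CPM against 281 and 332 CPM, and Krt23 at 2.78 and 4.24 CPM against 235 and 279 CPM. The filiform hair-type keratins Krt36, Krt84 and Krt35 were at 6.49 and 12.7, at 2.32 and 2.83, and at 1.85 and 2.83 CPM in members, against 400 and 430, 174 and 207, and 104 and 129 CPM. Krt4 was thus low but present, found in 63 of 69 ZT0 members and 55 of 56 ZT12 members, and the last 3 were near absent, with 4 to 18 UMIs per library. Most other cells lacked Krt36 too. It was found in 17.4% and 30.4% of members and in 28.9% and 34.4% of the other cells. After thinning, Krt84 was detected in 2.90% and 1.79% of members and in 2.40% and 3.40% of the other cells. Krt35 was then detected in 0% and 3.57% against 5.08% and 7.89%. Among 25 alternatives the smaller of both libraries' log2 ratios reached 0 for Krt36 and for Krt84.

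Serpinb12 and Serpinb3a, protease inhibitors of squamous cells, were 47.8 and 28.4 times and 37.4 and 19.7 times lower in members. Cyp2f2, a cytochrome P450 gene, was at 4.17 and 16.3 CPM in members against 186 and 428 CPM, and Ces1d, a carboxylesterase gene, at 2.32 and 4.24 CPM against 90.5 and 99.9 CPM. Cd74, the MHC class II invariant chain, had no UMI in any member. By the limit of its interval it was at least 81.2 times lower at ZT0 than in the other cells, which include immune cells. At ZT12 it was at least 10.8 times lower. Most other cells lacked Cd74 too, since after thinning it was detected in 1.51% and 0.441% of them. The smaller of both libraries' log2 ratios reached 0 among 25 alternatives, and the call was lost under 2. The last of the 12, 2310046K23Rik, held 0 and 1 UMIs in members and stood at 52.0 and 27.6 CPM elsewhere.

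Wnt genes outside the score were read by role, from lists chosen with earlier results of these data known. Of 27 target and feedback genes, 15 were measured (a mean of at least 5 CPM) and 11 reached the 20 CPM needed for a call. Of these, 6 were called higher and 0 lower, against 1.83% higher and 2.62% lower of all 5807 genes at that level. The median log2 ratio over the 15 was 0.24 at ZT0 and 0.79 at ZT12, against 0.01 and 0.01 over all 9464 genes measured. Besides Axin2 and Bambi, Tnfrsf19, a TNF receptor family member found in hair follicles, was at 72.8 and 64.3 CPM against 21.5 and 18.9 CPM, and Sp6, an epithelial transcription factor, at 42.7 and 66.5 CPM against 19.7 and 19.1 CPM. Znrf3, a ligase that removes Frizzled receptors, was at 44.0 and 34.6 CPM against 18.9 and 16.0 CPM, and Tcf7, the TCF1 gene, at 27.4 and 31.1 CPM against 12.98 and 13.2 CPM.

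Not all target genes were high. Myc was at 59.3 and 55.2 CPM in members and at 53.3 and 57.1 CPM elsewhere, and Cd44 at 317 and 300 CPM against 307 and 320 CPM. Ccnd1, cyclin D1, was at 307 and 463 CPM against 261 and 419 CPM. Trabd2b, a membrane protease that inactivates Wnt proteins, was at 8.81 and 2.83 CPM in members against 31.0 and 22.2 CPM. Lgr5, Sp5, Dkk4 and Sp8 had no UMI in any member. The members thus held high levels of some Wnt target genes and not of others, and pathway activity itself was not measured.

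Among 7 measured genes of Wnt ligands and their secretion, 5 reached the level needed for a call, and 1 was called higher and 1 lower. Wnt5a, a ligand that often acts outside the beta-catenin branch, was at 101 and 105 CPM in members against 29.3 and 24.97 CPM, with ratios of 3.45 (2.97 to 3.98) and 4.19 (3.52 to 4.96). Wnt7b was at 18.5 and 10.6 CPM against 39.5 and 33.9 CPM. Wnt4 was at 304 and 274 CPM against 392 and 436 CPM, and Wnt10a at 61.2 and 34.6 CPM against 68.4 and 49.4 CPM, neither past the 2-fold limit.

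Of 11 measured receptor genes, 8 reached the level needed for a call, and Fzd1 and Lgr4 were called higher and 0 lower. Fzd1, a Frizzled receptor, was at 122 and 103 CPM against 48.9 and 38.2 CPM. Lgr4, the broadly used R-spondin receptor, was at 89.9 and 105 CPM against 33.1 and 35.5 CPM. The co-receptors Lrp5 and Lrp6 were at 26.4 and 25.5 CPM and at 41.3 and 34.6 CPM, with log2 ratios within 1 of 0 in both libraries.

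Secreted modulators went both ways, with 7 of 9 measured genes at the level needed for a call, 2 called higher and 3 lower. Sostdc1, an inhibitor of Wnt and BMP signals, was at 11.1 and 9.19 CPM in members against 94.3 and 98.0 CPM, 8.47 times lower (5.69 to 13.2) and 10.7 times lower (6.23 to 20.04). Sfrp1, which binds Wnt ligands, was at 6.03 and 7.07 CPM against 41.3 and 36.3 CPM, and Igfbp4 at 7.88 and 13.4 CPM against 23.4 and 68.7 CPM. The glypican genes Gpc3 and Gpc4 were higher, at 182 and 154 CPM against 77.7 and 55.6 CPM and at 33.8 and 26.2 CPM against 11.1 and 9.91 CPM.

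Wif1, another secreted Wnt inhibitor, was under the level limit for a call, at 29.7 and 21.2 CPM in members from 64 and 30 UMIs. In the other cells it was at 2.01 and 0.578 CPM, so its ratios were 14.7 (10.6 to 20.4) and 36.7 (22.0 to 60.9). Of 14 measured genes of the destruction complex and the nuclear machinery, 12 reached the level needed for a call. Among them Bcl9, a beta-catenin co-activator, was called higher (70.0 and 61.5 CPM against 17.6 and 17.1 CPM) and 0 lower. Beta-catenin itself, Ctnnb1, was at 501 and 475 CPM against 400 and 401 CPM.

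**Figure D2:**
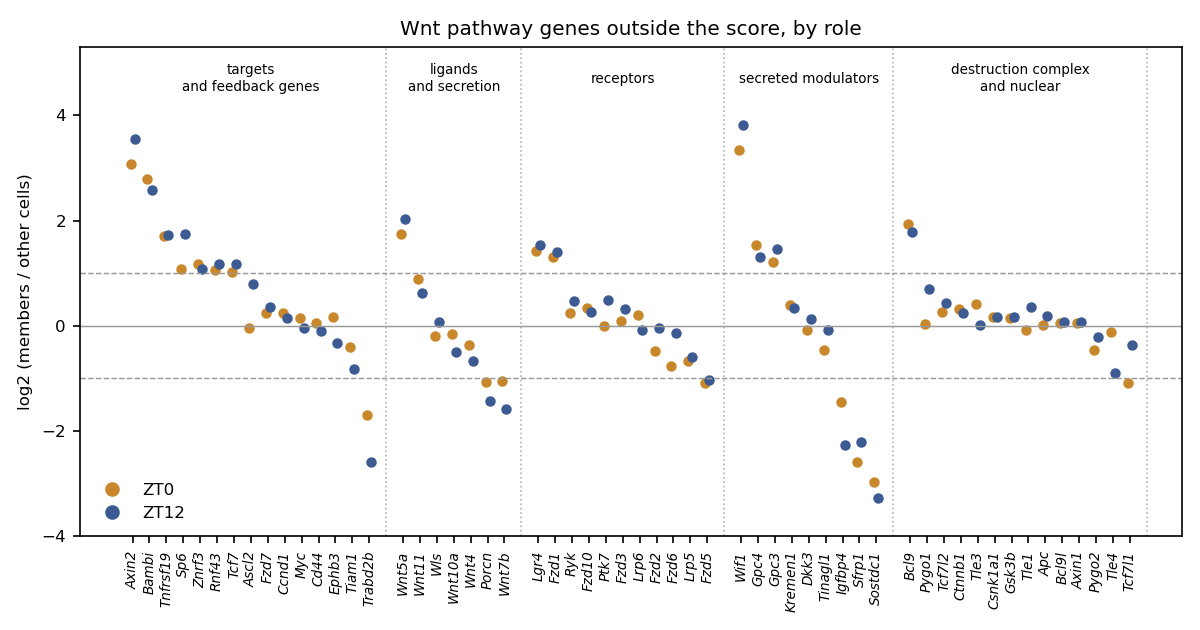
Log2 ratio of members to other kept cells (with 1 CPM added) for Wnt pathway genes outside the score with a mean of at least 5 CPM, grouped by role, with 1 point per library; dashed lines mark 2-fold. Among others, Axin2, Bambi, Wnt5a, Lgr4, Fzd1, Wif1 and Bcl9 lie above the upper line and Sostdc1, Sfrp1, Igfbp4 and Wnt7b below the lower one in both libraries. Most receptor and nuclear genes lie between the lines.

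Promoters were searched for the core TCF/LEF letters on either strand, CTTTGAA or the same with its last pair of bases changed to AT, to TA or to TT, in windows from 250 bases before to 50 after each start site (RefSeq, GRCm38.p6). The letters were found for 18.9% of all 27025 genes with a window, for 16.5% of the 79 genes called higher that matched and for 17.9% of the 106 called lower that matched. The genes high in members thus held these letters about as often as any gene in these short windows. Of the 7 score genes, 4 matched, and 1 window of Lef1 held a match. It is shown, with the match in capitals, beside the window of Axin2, which held none. Axin2 had the largest ratio among the called target genes outside the score.
Lef1, chr3:131156044-131156343, plus strand, match starting 147 bases before the start: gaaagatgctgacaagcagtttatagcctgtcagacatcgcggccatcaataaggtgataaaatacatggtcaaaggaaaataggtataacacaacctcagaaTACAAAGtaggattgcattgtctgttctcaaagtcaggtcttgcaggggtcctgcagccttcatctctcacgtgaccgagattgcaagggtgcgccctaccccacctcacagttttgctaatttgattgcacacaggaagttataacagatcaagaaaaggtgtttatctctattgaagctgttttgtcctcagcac
Axin2, chr11:108920099-108920398, plus strand, no match: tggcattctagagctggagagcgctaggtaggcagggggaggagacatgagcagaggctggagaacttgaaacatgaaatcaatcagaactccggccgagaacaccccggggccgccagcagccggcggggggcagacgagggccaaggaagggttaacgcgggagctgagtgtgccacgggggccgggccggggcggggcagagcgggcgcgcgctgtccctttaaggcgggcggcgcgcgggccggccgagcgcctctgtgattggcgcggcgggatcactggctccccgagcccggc
The Lef1 window belongs to a start inside the gene, and the remaining Lef1 windows held no match. A window with several matches was counted once. A match or its lack describes these letters and says nothing of binding.

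Signals that meet Wnt in skin appendages were read next. Of 15 measured BMP and TGF-beta genes, 12 reached the level needed for a call, and 3 were called higher and 0 lower. These were Msx2, Bmp2 (56.6 and 55.9 CPM against 24.8 and 26.2 CPM) and Bmp7 (97.8 and 94.0 CPM against 35.1 and 40.0 CPM), the last 2 being ligands. Bmp4 was at 54.7 and 28.3 CPM against 19.6 and 16.1 CPM, above 2-fold only at ZT0. The Id genes, common BMP targets, were not called, and Id3 was at 136 and 159 CPM against 234 and 212 CPM. Of 13 measured guidance genes, 10 reached the level needed for a call. Among them Robo1 and Epha4 were higher and the semaphorin receptor gene Plxna2 was lower, at 50.1 and 45.3 CPM against 160 and 178 CPM. Of 7 measured Hedgehog genes only 2 reached that level. Gas1, a Hedgehog co-receptor gene, was the 1 called, at 51.0 and 34.6 CPM against 116 and 92.7 CPM. Of 16 measured placode, Eda and Fgf genes 9 reached the level needed for a call, and of 8 measured Notch genes 6 did, and none were called.

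Members expressed keratinocyte genes, with some basal genes above and many differentiation genes below the other cells. Krt5 and Krt14, keratins of the basal layer, were at 5081 and 4786 CPM and at 7989 and 9393 CPM in members, against 2493 and 2466 CPM and 5186 and 5126 CPM. Trp63, the basal transcription factor p63, was at 493 and 368 CPM against 316 and 230 CPM. Of 16 basal genes, 15 reached the level needed for a call. The 1 called higher was Igfbp2, an IGF-binding protein gene, at 3347 and 2823 CPM against 849 and 766 CPM. The hemidesmosome genes Col17a1, Itga6 and Itgb4 were not above the other cells, for instance Itga6 at 145 and 134 CPM against 199 and 227 CPM.

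Of 14 genes of differentiation, 9 were called lower and 0 higher over all members pooled, with a median log2 ratio of -1.31 at ZT0 and -1.30 at ZT12. Krt13, the main keratin of differentiating oral epithelium, was still at 6885 and 9685 CPM in members, 2.74 and 2.71 times below the other cells. Krt10 and Krtdap were at 20.9 and 19.1 CPM and at 347 and 243 CPM, against 251 and 168 CPM and 1635 and 1084 CPM. Klf4, a transcription factor of differentiation, went the other way, at 980 and 933 CPM against 529 and 459 CPM. The pooled levels mix unlike members. Krtdap was at 105 and 74.3 CPM in members of cluster 13 and at 696 and 385 CPM in those of cluster 5. Both were below its level in the other cells. Krt13 was at 1626 and 1452 CPM and at 14693 and 16387 CPM in the same order. Klf4 hardly differed, at 976 and 892 CPM and at 1023 and 987 CPM. Of 7 measured filiform genes 5 reached the level needed for a call and 3 were lower, whereas trichohyalin, Tchh, was at 140 and 211 CPM against 161 and 167 CPM. Sox2, a factor of taste and tongue progenitors, was at 66.3 and 88.4 CPM against 134 and 183 CPM.

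Genes of cell division were low in members. Of 23 measured G2/M genes, 12 reached the level needed for a call, and 9 were called lower and 0 higher. Among the 9 were Mki67 at 44.97 and 4.95 CPM in members against 125.4 and 19.3 CPM, and Top2a at 28.7 and 9.19 CPM against 201 and 23.6 CPM. Of 20 measured S phase genes, 6 reached the level needed for a call and 0 were called. All 20 were lower in members of both libraries, and the medians of their log2 ratios were -0.81 and -0.73.

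Markers of other cell types were read as summed UMIs over each whole list. The 9 immune markers summed to 3 and 2 UMIs in the members of ZT0 and ZT12, and the 6 melanocyte markers to 7 and 13 UMIs. From these few UMIs the melanocyte markers were above the other cells, at 3.25 and 9.19 CPM against 1.38 and 1.32 CPM. Endothelial and muscle markers summed to 7 and 7 UMIs, and simple or glandular markers to 43 and 11 UMIs. Taste cell markers reached 43 and 43 UMIs and were at most 1.15 and 2.73 per 10000 in any member, against up to 81.6 and 54.3 in the other cells. Merkel and neural markers summed to 140 and 78 UMIs, close to the other cells in CPM (64.9 and 55.2 against 78.0 and 49.1). Immune markers were at most 0.336 and 0.394 per 10000 in any member, against up to 730 and 712 in the other cells. The members thus held no cell with the immune, glandular or taste marker levels seen elsewhere in the same libraries.

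The members did not lie in 1 place among the cells. All kept cells were clustered on their other genes, with the 7 score genes left out (20 clusters). Cluster 13, of 105 cells, held 62 members (49.6%), and cluster 5, of 286 cells, held 54 (43.2%), while the remaining 9 members lay in other clusters. Members made up 59.0% of cluster 13 and 18.9% of cluster 5. Of the 15 nearest neighbours of a member, 51.4% were members on average, against 3.07% of all kept cells, and 5 members had no member among their neighbours.

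The 2 clusters are named by their leading genes and not as cell types. The top genes of cluster 13 were Jakmip2, Stmn2, Lgr6 and Fbn2, and those of cluster 5 were Flg, Krt76, Tchh and Slurp1. Top genes of a whole cluster need not mark its members. Tchh was at 1494 and 1695 CPM over all of cluster 5 but at 156 and 275 CPM in its members. In members of cluster 13 it was at 138 and 150 CPM. Krt13 separated the members of both clusters, at 1626 and 1452 CPM in cluster 13 and at 14693 and 16387 CPM in cluster 5. Members in cluster 13 had more of the anchoring genes Col17a1 (532 and 517 CPM against 67.5 and 107 CPM) and Itgb4 (214 and 218 CPM against 14.9 and 37.3 CPM). They also had more of the neuronal-type cytoskeletal genes Map1b and Stmn2 (59.8 and 91.99 CPM and 69.3 and 77.8 CPM), which were at 0 to 1.29 CPM in members of cluster 5. Those genes helped to make the clusters and are a description.

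Members in cluster 5 had more of the sterol synthesis genes Fdps (355 and 272 CPM against 81.5 and 28.3 CPM), Idi1 (244 and 188 CPM against 58.1 and 19.5 CPM) and Sqle (150 and 86.2 CPM against 39.0 and 24.8 CPM). Selenbp1, a selenium-binding protein gene, was at 1825 and 1696 CPM against 193 and 258 CPM. Alcam was at 571 and 632 CPM in these members and at 207 and 260 CPM in those of cluster 13.

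The score genes played no part in the clustering, and over all cells of both clusters each was higher in cluster 13, by ratios that ran in steps from Apcdd1 to Fbn2. Fbn2 was 11.8 times higher in cluster 13 than in cluster 5 at ZT0 (7.50 to 19.5) and 9.90 times at ZT12 (7.08 to 13.9), Lgr6 4.80 times (3.57 to 6.51) and 4.36 times (3.13 to 6.05), and Robo2 2.88 times (2.39 to 3.48) and 3.88 times (3.15 to 4.77). Runx2 followed at 2.11 times (1.87 to 2.38) and 1.93 times (1.67 to 2.23), and Notum at 1.53 times (1.23 to 1.89) and 1.85 times (1.46 to 2.33). Lef1 differed by 1.64 times (1.49 to 1.80) and 1.56 times (1.39 to 1.75), and Apcdd1 1.41 times (1.31 to 1.52) and 1.39 times (1.25 to 1.54). Lgr6 and Fbn2 were thus the most unequal of the 7, and Lef1 and Apcdd1 were at high levels in both clusters. Lgr6 stood at 75.2 and 67.4 CPM there and at 15.7 and 15.5 CPM in cluster 5.

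Dcn was at 6529 and 5727 CPM over all of cluster 13 and at 1939 and 1633 CPM over cluster 5. Inside cluster 13 members and the rest hardly differed in it, at 6527 against 6532 CPM at ZT0 (40 and 23 cells) and 5642 against 5839 CPM at ZT12 (22 and 20 cells). Inside cluster 5 they did, at 3167 against 1640 CPM at ZT0 (24 and 80 cells) and 2984 against 1425 CPM at ZT12 (30 and 152 cells). Axin2 was at 54.6 against 14.9 CPM and 69.0 against 39.6 CPM inside cluster 13, and at 79.0 against 56.4 CPM and 61.8 against 37.6 CPM inside cluster 5. Bambi followed the score in cluster 13, at 258 against 66.3 CPM and 278 against 158 CPM, and not in cluster 5, at 184 against 183 CPM and 174 against 173 CPM.

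**Figure D3:**
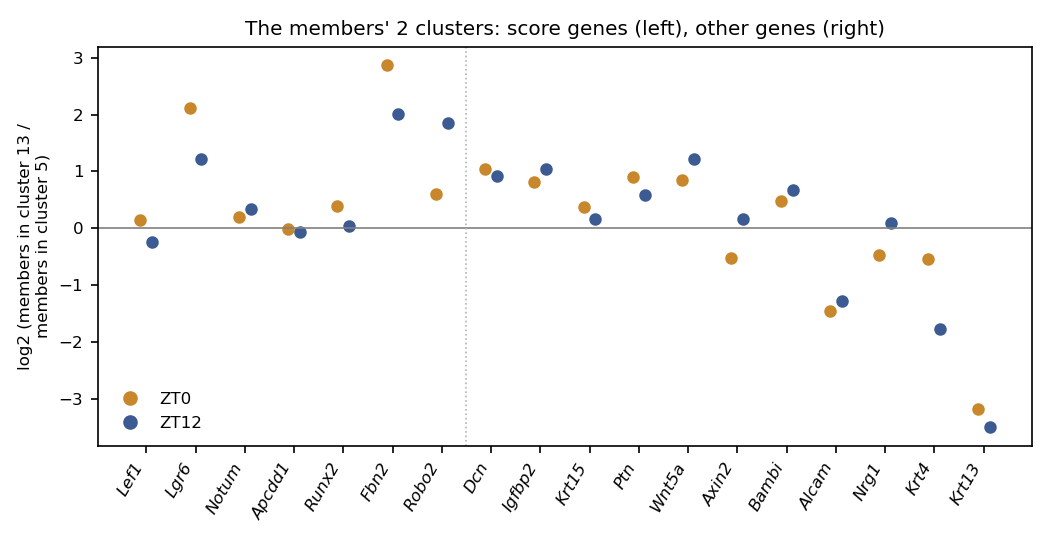
Log2 ratio of members in cluster 13 to members in cluster 5 (with 1 CPM added), with 1 point per library, for the 7 score genes, which were left out of the clustering, and for 11 other genes. Lgr6 and Fbn2 lie above 1, Lef1, Notum and Apcdd1 within 1 of 0, and Krt13 near -3 or below.

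The levels of Dcn and Axin2 fell gradually from members to other cells. In the cells ranked 1 to 60 by the score, in the remaining members, and in cells ranked 126 to 250, 251 to 500, 501 to 1000 and 1001 to 4078, both libraries together, Dcn stood at 5809, 3957, 3799, 2143, 785 and 121 CPM. Axin2 stood at 64.1, 62.7, 51.0, 34.1, 7.19 and 0.709 CPM in the same order. Both genes were thus still high in the cells ranked just after the members. Krt4 went the other way, from 288 CPM in the first 60 cells to 710.2 CPM at ranks 251 to 500 and 13894 CPM in the last group. Krt36 was at 13.4 CPM or less down to rank 250, at 1693 CPM at ranks 501 to 1000 and at 258 CPM below.

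**Figure D4:**
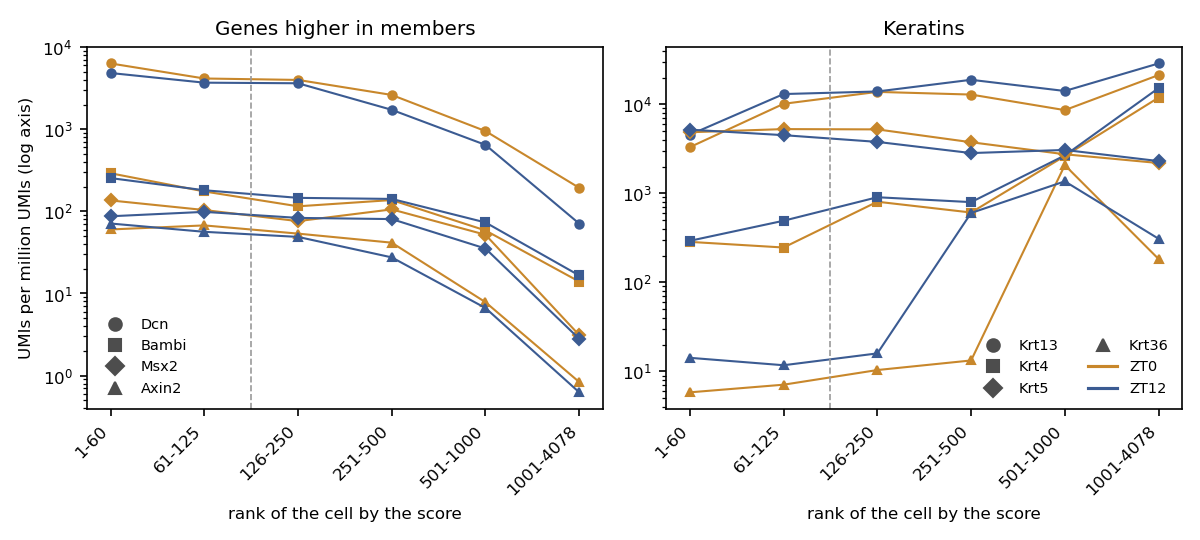
Levels in CPM (log axis) in cells grouped by rank of the score, for 4 genes higher in members (left) and 4 keratins (right), with 1 line per library; the dashed line marks the limit of the members. Dcn and Axin2 fall step by step past the limit, Krt4 climbs towards the lowest ranks, and Krt36 is highest at ranks 501 to 1000.

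The members were set beside 3 other sets of cells, chosen in the same way and number by Npnt, Frem2 and Sema3c, by Pappa and Nppc, and by Krt36 and Krt84. Cells that were also members, 1, 2 and 0 in the 3 sets, were left out. By the same size rule 233 genes (3.91%) were higher and 344 (5.77%) lower in members than in the Npnt set, 308 (5.23%) and 262 (4.45%) against the Pappa set, and 268 (4.75%) and 289 (5.12%) against the Krt36 set. These counts include the genes that chose either set, and nothing is read from them.

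Lef1 was at 5.32 and 16.4 CPM in the Npnt set, 41.2 and 60.5 CPM in the Pappa set and 1.84 and 6.69 CPM in the Krt36 set. Axin2, outside every rule, was at 3.99 and 2.85 CPM, 2.75 and 5.96 CPM, and 4.59 and 7.64 CPM in the 3 sets, so its level in members (64.0 and 62.2 CPM) was above all of them. Dcn was at 609 and 231, 951 and 951, and 319 and 522 CPM. Bambi separated members from the Pappa set (5.49 and 20.6 CPM) but not by 2-fold from the Npnt set (133 and 136 CPM) or the Krt36 set (164 and 185 CPM).

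Cldn4, a tight junction claudin gene, was at 79.7 and 96.9 CPM in members and at 0 and 0.712 CPM in the Npnt set. In the other direction Sostdc1 was at 380 and 793 CPM and Tgfbi, a matrix protein gene, at 275 and 282 CPM in the Npnt set, against 7.88 and 4.95 CPM of Tgfbi in members. The neuronal tubulin gene Tubb3 was at 142 and 107 CPM in members and 1.37 and 0.917 CPM in the Pappa set. Crabp1, a retinoic acid-binding protein gene, was at 301 and 472 CPM in the Pappa set and at 3.25 and 3.54 CPM in members. Ptn, the growth factor pleiotrophin, was at 657 and 504 CPM in members and 6.43 and 23.9 CPM in the Krt36 set, which in turn held 4094 and 3452 CPM of Krt35.

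Members were 69 of 1525 kept cells at ZT0, 4.52% (exact interval 3.54 to 5.69), and 56 of 2553 at ZT12, 2.19% (1.66 to 2.84). The share at ZT12 was 0.485 of that at ZT0 (0.335 to 0.70). With the score read from 5000 UMIs per cell, 63 and 62 cells were chosen and the ratio was 0.588 (0.407 to 0.848). Cluster 13 held 40 ZT0 and 22 ZT12 members, and cluster 5 held 24 and 30. Digestion, the live-cell sort, and the depth difference between the libraries can set such shares. With 1 library per time, a difference between times cannot be told apart from one between libraries.

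Inside the members, a gene was called by time of day where it changed at least 2-fold, with an interval that excluded 1 and a mean of at least 50 CPM. By this rule 2 of 2837 genes were higher at ZT12 (0.0705%) and 9 were lower (0.317%). In the other cells the same rule gave 10 higher (0.353%) and 26 lower (0.918%) of 2833 genes, from many more UMIs.

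For Lef1, Notum, Lgr6 and Axin2 the interval of the ratio between the times in members included 1, while Apcdd1 was lower at ZT12, with a ratio of 0.82 (0.76 to 0.89). Lef1 had a ZT12 to ZT0 ratio of 1.06 (0.96 to 1.17), Notum 1.11 (0.89 to 1.38) and Lgr6 0.94 (0.70 to 1.26), all chosen by the score. Axin2, outside the score, had a ratio of 0.97 (0.74 to 1.28) in members and 0.65 (0.55 to 0.77) in the other cells, and Dcn 0.80 (0.77 to 0.82) and 0.56 (0.55 to 0.57).

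Clock genes differed between the times in members as in the other cells. All 9 evening clock genes had more UMIs at ZT12, and the median of their log2 ratios was 2.50 in members and 2.53 in the other cells. Dbp, a clock output factor (chromosome 7, 45705088 to 45710203), was at 2.32 CPM in ZT0 members, from 5 UMIs, and at 57.3 CPM in ZT12 members, a ratio of 24.7 (10.2 to 78.1). In the other cells it was at 3.61 and 197 CPM, a ratio of 54.6 (46.9 to 63.9), so its ZT12 level was lower in members. Its relatives Tef and Hlf had ratios of 7.97 (5.02 to 13.2) and 3.27 (1.68 to 6.67) in members, and Per3, a period gene, 9.07 (5.47 to 15.9).

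The repressors Nr1d1 and Nr1d2 had ZT12 to ZT0 ratios of 6.29 (3.6 to 11.6) and 7.08 (3.93 to 13.7) in members. Usp2 was 2.33 times (1.26 to 4.39) and Tsc22d3 2.03 times (1.46 to 2.82) higher. Ciart, a clock repressor gene, had a ratio of 2.11 (0.98 to 4.69) in members from 13 and 18 UMIs, against 8.23 (6.65 to 10.3) in the other cells. Arntl, the Bmal1 gene, went from 17.6 to 0.707 CPM, and Cry1 from 25.03 to 12.7 CPM. Clock, its partner, was at 88.1 and 83.4 CPM in members and at 97.6 and 59.6 CPM elsewhere. The evening genes were mostly under the level limit in members, and 0 of them were called.

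Of the 9 genes called lower at ZT12, 5 belonged to the interferon and MHC class I list. B2m, which encodes the MHC class I light chain (chromosome 2, 122147686 to 122153083), was at 210 CPM in ZT0 members and 16.3 CPM in ZT12 members, 12.9 times lower (8.50 to 20.6), and at 384 and 29.4 CPM in the other cells. Ifi27l2a, an interferon-induced gene, was at 274 and 13.4 CPM, 20.4 times lower (12.9 to 34.1). The heavy chain genes H2-K1 and H2-D1 were 3.76 times (3.15 to 4.52) and 2.65 times (2.22 to 3.19) lower, and Ifitm3, an antiviral membrane protein gene, 2.12 times (1.84 to 2.44), a call lost under 6 of 24 alternative settings. Ifi27l2a, B2m, H2-K1, H2-D1 and Ifitm3 were lower at ZT12 in the other cells too.

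Isg15, an interferon-induced ubiquitin-like protein gene, was an exception among members. It was at 12.98 and 12.0 CPM in members, from 28 and 17 UMIs, and at 85.7 and 4.0 CPM in the other cells. Ifit1 was at 3.25 and 3.54 CPM in members against 30.9 and 0.578 CPM. Immune markers were at 3 and 2 UMIs in all members. Free RNA was not corrected, and the source of the interferon and MHC transcripts was not tested.

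The other 4 genes lower at ZT12 were Crip1 (764 and 364 CPM), Apoc1 (122 and 43.1 CPM), Myadm (114 and 46.0 CPM) and Prxl2a (155 and 72.8 CPM), whose calls were lost under 5, 3, 2 and 3 of 24 alternative settings. Prxl2a was at 234 and 140 CPM in members of cluster 13 and at 34.3 and 19.3 CPM in those of cluster 5, and cluster 13 held fewer of the ZT12 members. The part of this make-up in the difference was not tested. The gene higher at ZT12 was Krt16, a stress keratin, at 191 and 411 CPM, 2.15 times (1.89 to 2.44), against 867 and 1020 CPM in the other cells. This call was lost under 8 of 24 alternative settings. Krt16 was at 73.7 and 95.5 CPM in members of cluster 13 and at 374 and 676 CPM in those of cluster 5, whose share of the members was larger at ZT12. The part of this make-up in its difference was not tested either. Pappa also passed the rule, at 31.5 and 85.6 CPM, but 1 cell held over 20% of its UMIs.

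**Figure D5:**
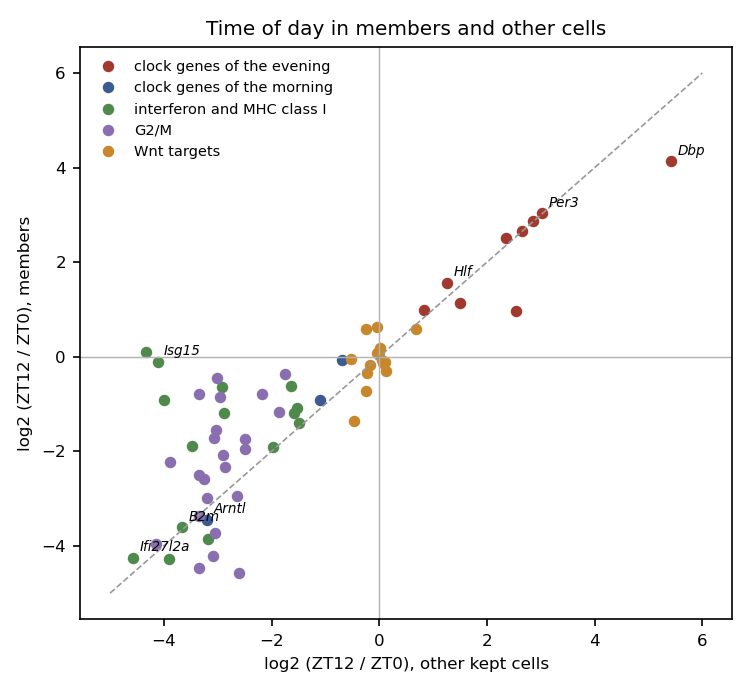
Log2 ratio of ZT12 to ZT0 (with 1 CPM added) in members against the same ratio in the other kept cells, for 5 gene lists; each point is 1 gene with a mean of at least 5 CPM, and the dashed line marks equal ratios. Evening clock genes lie in the upper right, B2m and Ifi27l2a near the line in the lower left, Isg15 near 0 in members alone, and Wnt target genes around 0.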

How the data were processed

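Single-cell 3′ RNA libraries of mouse tongue epithelium were used, 1 at ZT0 and 1 at ZT12. The authors deposited raw UMI counts for 32285 genes. The genome build was mm10 and the counter Cell Ranger 2.1.1, per the submitters' processing notes, whereas the matrices name Cell Ranger 4.0.0, per the file headers; this was not settled. Gene positions came from GENCODE M21 by identifier (32158 found). The filters removed 201 of 1726 barcodes at ZT0 and 266 of 2819 at ZT12. Free RNA was not corrected.

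The members and gene lists were chosen with earlier results of these data known. UMIs were summed over members and over other cells in each library and divided by their total. Ratios have exact conditional binomial intervals and shares exact Clopper-Pearson intervals. With 1 library per time no p-value was computed. Clusters used 2000 variable genes without the score genes, 30 principal components, 15 neighbours and Leiden resolution 1 (leidenalg 0.10.2). The size rules were tested on simulated data.

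The text names the 7 score genes, the 20 genes furthest above and 12 furthest below the other cells, up to 10 genes per direction of time, up to 6 genes per list or comparison set and clock genes. Genes of which 1 cell held over 20% of the UMIs were left out of the higher ones. Genes named for their role, their place in 1 of the 2 clusters or at 0 were chosen after their values were seen. 1 gene of a comparison set is not reported here. Alternatives included TMM scaling (edgeR 4.0.16).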

Additional observations from a re-analysis of the deposited data

How the results depend on the processing

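The share of members at ZT12 over ZT0 ran from 0.398 with 60 members to 0.679 with 250 over the alternatives set out for it; it was 0.329 for the members of cluster 13 alone and 0.747 (0.422 to 1.33) for those of cluster 5, and taking 3% of each library fixes it near 1. Counts of genes higher and lower in members stayed within 1.5 times of 106 and 152, except with no minimum level (239 and 420), with a minimum of 100 CPM (29 and 44), and for lower genes against the other cells of the members' own clusters (100). There 9 of the 86 higher genes were among the 106, and Otop2 (-0.40), Nrg1 (-0.28) and Otop3 (-0.41) turned lower on the log2 scale. Genes higher at ZT12 in members were few, and their count of 2 became 1 with the thinned score, with the stricter cell filter, with a minimum of 100 CPM and without the top cell of each gene. It became 4 without Lef1, Lgr6, Apcdd1 or Fbn2 in the score and without cells of high UMIs, 5 without Notum, 6 without Runx2, 9 with 3% of each library, 11 with 60 members and 132 with no minimum. Genes lower at ZT12 went from 9 to 20 with 60 members and 227 with no minimum. In an alternative chosen after seeing the data, the members of cluster 13 alone gave 15 higher and 17 lower at ZT12, and those of cluster 5 alone 10 higher. Members among a member's neighbours fell from 51.4% to 39.4% with the thinned score, which kept 88 members. B2m, H2-K1, H2-D1 and Ifi27l2a were called lower at ZT12 under all 24 alternatives run for them. Krt16 lost its call under 8, Ifitm3 under 6, Crip1 under 5, Apoc1 and Prxl2a under 3 and Myadm under 2. No paired analysis was possible because each time has 1 library. The cause of these shifts was not tested. With 56 ZT12 members, genes under 50 CPM rest on few UMIs.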
